A study of Mus musculus with 12 samples.

Results

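The 8 genes Lck, Fyn, Zap70, Lat, Lcp2, Plcg1, Prkcq and Themis encode the first signalling proteins that act when a T cell receptor or a pre-T cell receptor is engaged. They were chosen by gene symbol, as a pathway, from 23366 gene symbols, and all 8 had a row in each of the 3 expression tables. Expression was measured by RNA-seq of total RNA, depleted of ribosomal RNA, from Beko cells, a mouse pre-T cell line grown in culture. There were 12 libraries in 3 experiments, each with 2 treated and 2 control libraries of its own. In the first experiment cells received DAPT at 10 µg/ml for 24 h or the solvent DMSO for 24 h. DAPT inhibits γ-secretase, the protease that frees the intracellular domain of Notch receptors. In the second, cells received apicidin, an inhibitor of histone deacetylases, at 0.01 µg/ml for 24 h or DMSO for 24 h. In the third, cells were infected with a plasmid that drives an shRNA against Hdac3 (shHdac3), a short RNA hairpin that silences the gene, or with one that drives a scrambled hairpin, and both groups were taken 96 h after puromycin. The study used DAPT to find genes under Notch control, and apicidin and shHdac3 to ask what loss of the deacetylase HDAC3 does to such genes. All groups come from the same line, the sample descriptions name 1 hairpin against Hdac3, and apicidin is known to act on other class I deacetylases as well. No label states that the replicates are separate cultures, and the spread behind each p-value, that between libraries, may be technical.

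Signalling starts when the Src-family kinases Lck and Fyn phosphorylate the tyrosine motifs of the CD3 and ζ chains. Zap70 docks on these motifs and phosphorylates the adaptors Lat and SLP-76 (encoded by Lcp2), which assemble a complex that holds phospholipase C-γ1 (Plcg1). Plcg1 makes inositol trisphosphate, which releases calcium, and diacylglycerol, which recruits protein kinase C-θ (Prkcq) and Ras activators. Themis is a T-lineage protein that binds the Lat complex through Grb2 and is needed for thymocyte selection. In pre-T cells the same proteins carry the signal of the pre-T cell receptor at β-selection, a step at which thymocytes also depend on Notch.

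The 8 genes did not all move in the same direction with any treatment. With DAPT, 5 genes were higher (Prkcq, Lcp2, Themis, Lat and Plcg1) and 2 were lower (Fyn and Lck), while Zap70 did not pass the test. The test was limma with Benjamini-Hochberg adjustment over all genes at 0.05; it called 20.1% of the 12840 genes tested higher with DAPT and 23.1% lower. With apicidin, 5 genes were higher (Themis, Prkcq, Plcg1, Lcp2 and Zap70) and Lck was lower, against 18.2% of 12463 genes called higher and 19.9% called lower. With shHdac3, Zap70 and Plcg1 were higher and Lck was lower, against 22.5% of 12482 genes called higher and 19.4% called lower. Lck was thus lower and Plcg1 higher with every treatment, the only ones of the 8 called the same way throughout. Of the 12204 genes tested in all 3 experiments, 2.35% were called higher and 2.25% lower in every one. The largest change of any of the 8 was the 1.56-fold rise of Prkcq with DAPT. The median log2 fold change of the 8 genes was 0.18 with DAPT, 0.14 with apicidin and 0.04 with shHdac3, while the median over all genes tested was 0.00 in each experiment.

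The summed gene reads per library were 37237080 to 42815304 for DAPT and its DMSO group, 21766984 to 29652001 for apicidin and its DMSO group, and 24673559 to 29004315 for the hairpins. Replicates had an r of 0.9956 to 0.9969 across genes and differed by more than sampling noise. The least covered value of the 8 genes was 1376 reads, for Zap70, which is a counting error of 2.70%; the best covered was 25664 reads, for Lck, with a counting error of 0.624%. Hdac3, the hairpin's target, was measured at 774 and 819 normalized reads after shHdac3, against 2012 and 1930 after the scrambled hairpin (log2 fold change -1.31 ± 0.05 SE). Of 9 T cell markers, 8 were expressed and Cd7 stayed under 10 normalized reads in all 12 libraries. Ms4a1, Pax5 and Ebf1 of 6 B cell markers, Ncr1 and Klrd1 of 5 NK cell markers, Fcer1a and Tpsb2 of 5 mast cell markers and 3 of 5 erythroid markers, Hbb-b1 and Hba-a1 among them, were at 0 in every library. Of 6 myeloid markers, 5 stayed under 10. Summed over each list, T cell markers gave 96078 to 98403 normalized reads with DAPT, against 116924 to 120438 with DMSO. The sum was 61698 to 62152 with apicidin, against 79027 to 79098 with DMSO. With shHdac3 it was 62799 to 64621, against 83917 to 84268 after the scrambled hairpin. Rag1 was the largest part of the fall with DAPT, at 41720 and 42519 normalized reads, against 59768 and 63296 with DMSO. Of the 8 T cell markers tested, 3 were higher and 5 lower with DAPT. With apicidin 2 were higher and 5 lower, and with shHdac3 1 was higher and 5 lower. Those higher with DAPT were Cd247 (log2 fold change 0.59), Tcf7 (0.41) and Bcl11b (0.24). Those lower with DAPT were Ptcra (-2.32), Rag2 (-1.14), Cd3g (-0.71), Rag1 (-0.55) and Cd3e (-0.26). Myeloid markers, nearly all of it Itgam, summed to 466 to 531 with DAPT, against 240 to 246 with DMSO, and to 751 to 799 with apicidin, against 509 to 535 with DMSO, while with shHdac3 the sum was 368 to 396, against 368 to 392 after the scrambled hairpin. Mast cell markers, mostly Kit and Cpa3, summed to 3847 to 3860 with DAPT, against 1478 to 1485 with DMSO, to 1927 to 2048 with apicidin, against 1611 to 1762 with DMSO, and to 5228 to 5241 with shHdac3, against 2352 to 2455 after the scrambled hairpin. Fibroblast markers, mostly Pdgfrb, summed to 1102 to 1160 with DAPT, against 1200 to 1212 with DMSO, to 1894 to 1929 with apicidin, against 1459 to 1460 with DMSO, and to 1989 to 2011 with shHdac3, against 1221 to 1228 after the scrambled hairpin. Of 2 fibroblast markers tested with DAPT, Pdgfrb was lower and Col1a2 higher, at 73 and 68 normalized reads, against 28 and 21 with DMSO. Of 3 tested with apicidin 2 were higher and none lower, and of 3 with shHdac3 2 were higher and 1 lower. B cell, NK cell and erythroid markers summed to 303 or less in every library. The part of these marker changes in the results below was not tested. In bulk RNA, fewer cells of a type and less RNA per cell cannot be told apart.

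To compare genes with one another, normalized reads were divided by the length of their merged annotated exons. These lengths ran from 2767 bp for Lat to 11682 bp for Themis. They count the exons of all annotated transcripts, whether or not these cells use them, so the order depends on the annotation. On that per-kilobase scale Lck and Lat stood far above the other 6 in every group. In the DMSO group of the DAPT experiment Lck averaged 8629 reads per kb and Lat 6536, followed by Fyn at 1597, Themis at 1194, Zap70 at 776, Lcp2 at 758, Plcg1 at 656 and Prkcq at 448. All neighbours in that order were apart in both libraries except Zap70 and Lcp2, whose ranges overlapped. Lck lay at percentile 98.2 of the genes tested on this scale and Prkcq at percentile 70.1. The order in the other control groups began and ended in the same way, with Lck at 4643 and Lat at 4205 reads per kb in the DMSO group of the apicidin experiment, and at 4613 and 4396 with the scrambled hairpin. Treatment changed the order at the top. With apicidin Lat averaged 4219 reads per kb and Lck 3560, and with shHdac3 Lat averaged 4237 and Lck 3783, in both cases without overlap between the libraries. With DAPT Lck stayed first at 7795 reads per kb and Lat followed at 7654, while Themis at 1480 passed Fyn at 1195. Prkcq came last in all 6 groups on this scale, while in normalized reads not divided by length Zap70 had the lowest mean in each. The 3 experiments were normalized separately, so a level in one is not set against a level in another.

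**Figure D1:**
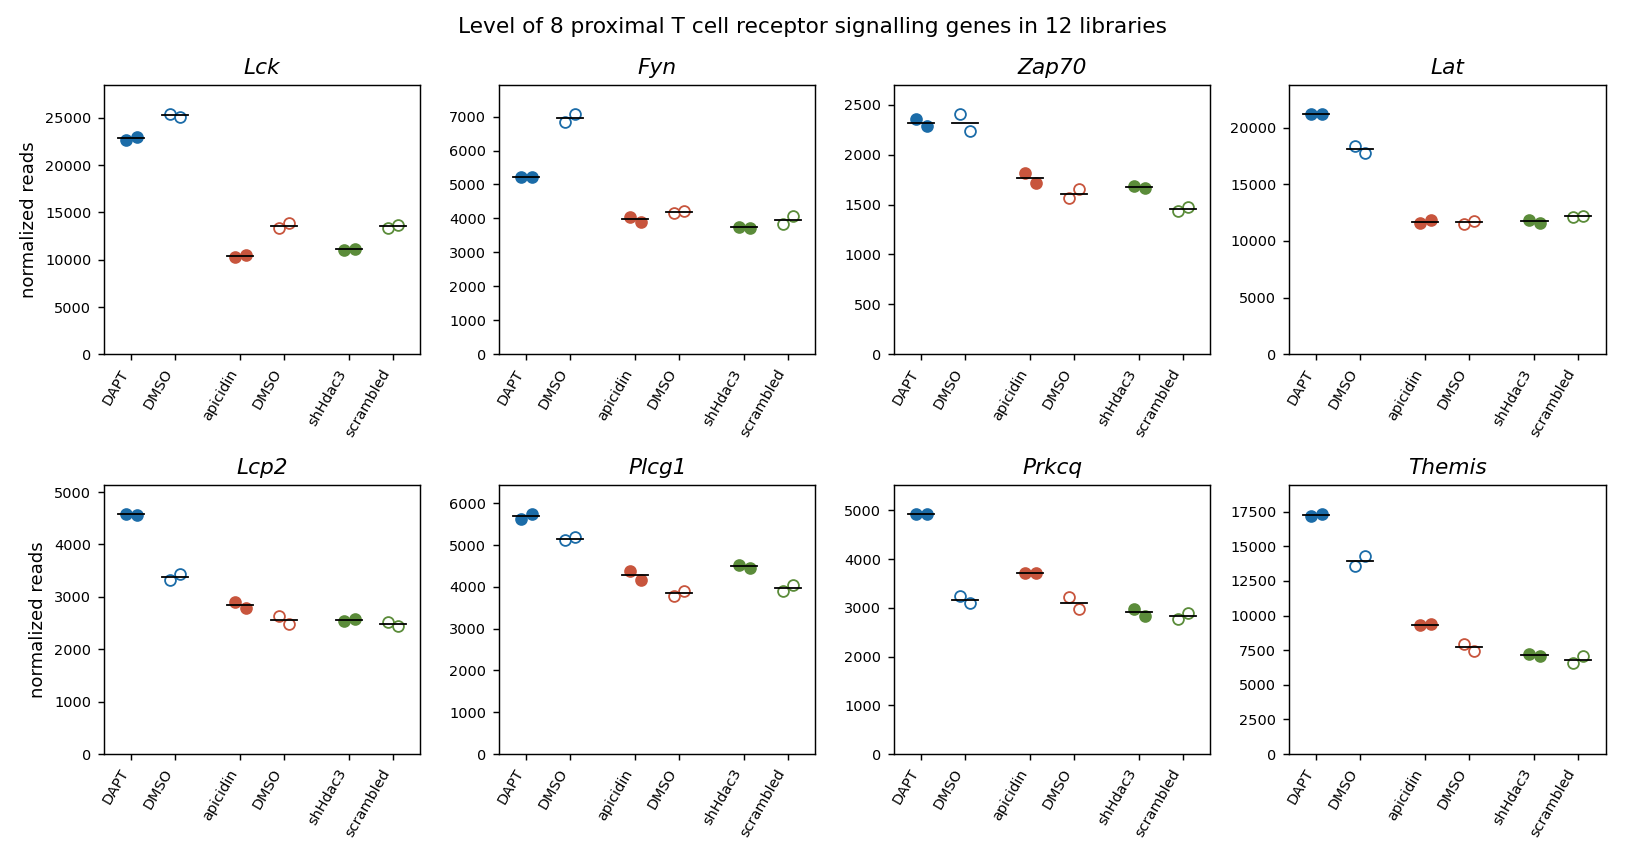
Normalized reads (y axis, from 0) of each of the 8 genes in all 12 libraries; each circle is a library, filled for treated and open for control, and each bar is the mean of 2 libraries. Groups overlap only for Zap70 with DAPT, Lat with apicidin and Prkcq with shHdac3; each experiment has its own scale of normalization.

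Lck encodes the Src-family kinase that is carried by the CD4 and CD8 coreceptors. It was lower with all 3 treatments, most with apicidin. With DAPT it had 22704 and 22959 normalized reads, against 25422 and 25125 with DMSO, a log2 fold change of -0.15 ± 0.04 (SE; adjusted p = 0.0020). With apicidin it had 10337 and 10520, against 13331 and 13866 with DMSO (-0.38 ± 0.04; adjusted p = 2.7e-06). With shHdac3 it had 11074 and 11086, against 13385 and 13639 with the scrambled hairpin (-0.29 ± 0.05; adjusted p = 1.5e-06). Every treated library lay below both of its controls. Lck thus fell by 9.66% with DAPT, by 23.3% with apicidin and by 18.0% with shHdac3. The DAPT call was lost without DAPT replicate 1, where the log2 fold change was -0.14 and the adjusted p 0.058. Lck has a distal and a proximal promoter, of which the proximal one is used mainly in immature thymocytes, and the deposited values give 1 total per gene. Its annotated exons lie within chr4:129548344-129573641 on the minus strand of GRCm38. The bases before both RefSeq starts are given to show the regulatory sequence of the kinase that was lower with every treatment, in GRCm38.p6, 5′ to 3′ on the minus strand, with annotated exon bases left out. The distal sequence is chr4:129573642-129573891 and the proximal one chr4:129558392-129558622.
Lck distal: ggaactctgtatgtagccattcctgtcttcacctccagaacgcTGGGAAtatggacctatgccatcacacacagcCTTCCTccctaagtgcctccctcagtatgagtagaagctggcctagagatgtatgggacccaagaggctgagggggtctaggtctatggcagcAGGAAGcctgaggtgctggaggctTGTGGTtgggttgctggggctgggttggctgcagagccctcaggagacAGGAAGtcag
Lck proximal: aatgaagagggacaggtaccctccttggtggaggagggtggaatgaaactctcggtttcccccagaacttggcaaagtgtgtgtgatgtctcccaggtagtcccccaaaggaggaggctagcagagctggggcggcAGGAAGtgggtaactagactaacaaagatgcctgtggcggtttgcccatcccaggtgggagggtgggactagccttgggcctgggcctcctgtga
Capitals mark matches on either strand to 5 short motifs: TGGGAA, the core bound by the Notch partner RBPJ; TGTGGT, bound by RUNX factors; AGGAAG, bound by ETS factors; CTTTGA, bound by TCF and LEF factors; and the E-box CAGCTG. In the same 250 bases upstream of 32851 RefSeq starts, the RBPJ motif was found in 21.6%, the RUNX motif in 14.0%, the ETS motif in 29.5%, the TCF and LEF motif in 13.8% and this E-box in 13.0%. The distal sequence holds 1 match to the RBPJ motif, 1 to the RUNX motif and 3 to the ETS motif, and the proximal one 1 to the ETS motif, none of them overlapping another. Such matches describe the letters only and are not binding sites shown by these data. The RBPJ motif also has 1 match before the first RefSeq start of Zap70, which did not pass the test with DAPT, and 1 before that of Lat. It has none before the starts of Plcg1, Prkcq and Themis.

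Fyn encodes the other Src-family kinase of the receptor complex. It was lower with DAPT and changed by less than the test could call with the other treatments. The DAPT libraries had 5211 and 5219 normalized reads, against 6853 and 7081 with DMSO (log2 fold change -0.42 ± 0.04 SE; adjusted p = 4.5e-09). This was the largest fall of the 8 genes in any experiment, and its mean fell by 25.1%. The apicidin libraries had 4036 and 3910, against 4157 and 4227 with DMSO (-0.08 ± 0.04; adjusted p = 0.15). The shHdac3 libraries had 3737 and 3731, against 3845 and 4072 with the scrambled hairpin (-0.08 ± 0.05; adjusted p = 0.14). The treated libraries lay below their controls in both, and neither change passed the test. With upper-quartile scaling in place of the authors' factors, the shHdac3 value was -0.12 with an adjusted p of 0.019. Its exons span chr10:39368855-39565381 on the plus strand of GRCm38. The bases before the RefSeq start of this gene with the largest fall, chr10:39369549-39369763 on the plus strand, are shown. They lie inside the span just given, so they precede the RefSeq start at 39369799 but not the first annotated base of the gene. They hold 1 match to the TCF and LEF motif and none of the other 4 motifs.
Fyn: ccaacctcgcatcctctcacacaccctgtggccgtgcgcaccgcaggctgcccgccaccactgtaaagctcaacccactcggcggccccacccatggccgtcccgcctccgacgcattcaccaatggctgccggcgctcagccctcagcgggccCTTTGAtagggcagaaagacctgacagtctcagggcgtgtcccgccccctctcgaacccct

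The ratio of both kinases moved one way with DAPT and the other way with the HDAC treatments. Per kilobase of exon, the ratio of Lck to Fyn was 6.49 and 6.55 with DAPT, against 5.53 and 5.29 with DMSO. With apicidin it was 3.82 and 4.01, against 4.78 and 4.89 with DMSO. With shHdac3 it was 4.41 and 4.43, against 5.19 and 4.99 with the scrambled hairpin. The ratio was higher with DAPT and lower with both HDAC treatments, without overlap of groups in any experiment. Among all genes tested, levels did not overlap for 69.9% with DAPT, 69.0% with apicidin and 69.2% with shHdac3. The ratio itself was not tested.

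**Figure D2:**
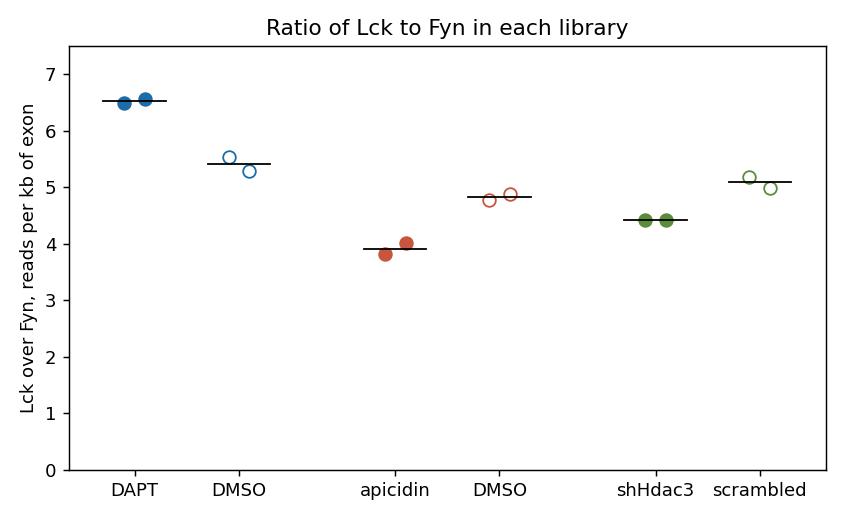
Ratio of Lck to Fyn in reads per kb of exon (y axis, from 0) in each of the 12 libraries, with treated libraries filled, controls open and group means as bars. The ratio is above its controls with DAPT (6.49 and 6.55) and below them with apicidin and shHdac3.

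Zap70 encodes the kinase that docks on the phosphorylated receptor chains. It did not pass the test with DAPT and was higher with both HDAC treatments. With DAPT it had 2354 and 2288 normalized reads, against 2409 and 2233 with DMSO, a log2 fold change of 0.00 ± 0.05 (adjusted p = 0.99). With apicidin it had 1818 and 1718, against 1563 and 1657 with DMSO (0.13 ± 0.05; adjusted p = 0.040). With shHdac3 it had 1689 and 1666, against 1438 and 1474 with the scrambled hairpin (0.20 ± 0.05; adjusted p = 0.0010), a 1.15-fold rise. The DAPT libraries lay between their controls, and the other treated libraries above theirs. The apicidin call was the weakest of the 8 genes. Omitting apicidin replicate 1 ended it (0.09; adjusted p = 0.31), as did omitting replicate 1 of its DMSO group (0.09; adjusted p = 0.20), and the adjusted p of the authors' deposited table was 0.24. Zap70 lies at chr1:36761798-36782818 on the plus strand of GRCm38. Its close relative Syk, which shares the early role in thymocytes, was at 27 or fewer normalized reads in every library.

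Lat, the membrane adaptor that gathers the signalling complex, was higher with DAPT and did not pass the test otherwise. The DAPT libraries had 21209 and 21150 normalized reads, against 18392 and 17777 with DMSO (log2 fold change 0.23 ± 0.04 SE; adjusted p = 2.0e-05). The apicidin libraries had 11536 and 11813, against 11501 and 11767 with DMSO (0.01 ± 0.04; adjusted p = 0.94). The shHdac3 libraries had 11841 and 11604, against 12137 and 12188 with the scrambled hairpin (-0.05 ± 0.05; adjusted p = 0.37). The apicidin libraries interleaved with their controls, and the shHdac3 libraries lay below theirs by a change that did not pass the test. Lat is a short gene, at chr7:126363824-126369570 on the minus strand of GRCm38, and 2.71% of its exon bases are shared with an annotated miRNA gene on the same strand.

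Lcp2 encodes SLP-76, the cytosolic adaptor that joins the Lat complex through Grap2. It had 4589 and 4565 normalized reads with DAPT, against 3322 and 3435 with DMSO (log2 fold change 0.44 ± 0.04 SE; adjusted p = 5.1e-09). With apicidin it had 2898 and 2784, against 2638 and 2475 with DMSO (0.15 ± 0.05; adjusted p = 0.014). With shHdac3 it had 2541 and 2575, against 2516 and 2451 with the scrambled hairpin (0.04 ± 0.05; adjusted p = 0.49). It was thus 1.35-fold higher with DAPT and 1.11-fold higher with apicidin, while with shHdac3 the libraries lay just above their controls. The apicidin call ended on omitting apicidin replicate 1 (0.12; adjusted p = 0.14) or replicate 2 of its DMSO group (0.11; adjusted p = 0.096), and the adjusted p of the authors' deposited table was 0.099. Lcp2 lies at chr11:34046920-34092295 on the plus strand of GRCm38, and 6.32% of its exon bases overlap a gene on the other strand, whose reads cannot be told apart if strand was not used in counting. Its upstream bases, chr11:34046678-34046919 on the plus strand, are shown as those of the adaptor with the larger rise. They hold 1 match each to the RBPJ, ETS, TCF and LEF, and E-box motifs.
Lcp2: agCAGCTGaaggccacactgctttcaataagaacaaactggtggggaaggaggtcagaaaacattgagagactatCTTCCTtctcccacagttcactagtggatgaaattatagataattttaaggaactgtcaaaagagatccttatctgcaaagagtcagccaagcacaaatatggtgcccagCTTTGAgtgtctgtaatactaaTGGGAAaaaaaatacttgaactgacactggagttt

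Plcg1, the phospholipase that starts the calcium and diacylglycerol branches, was higher by a similar step with every treatment. The DAPT libraries had 5616 and 5753 normalized reads, against 5125 and 5182 with DMSO (log2 fold change 0.14 ± 0.04 SE; adjusted p = 0.0037). The apicidin libraries had 4389 and 4168, against 3784 and 3907 with DMSO (0.15 ± 0.04; adjusted p = 0.0090). The shHdac3 libraries had 4522 and 4452, against 3903 and 4037 with the scrambled hairpin (0.18 ± 0.04; adjusted p = 0.0011). All 6 treated libraries lay above both of their controls, on average by 10.3% with DAPT, 11.2% with apicidin and 13.0% with shHdac3. The DAPT call was lost without DAPT replicate 2 (0.12; adjusted p = 0.097) and the apicidin call without apicidin replicate 1 (0.12; adjusted p = 0.15), and for apicidin the adjusted p of the authors' deposited table was 0.057. Plcg1 lies at chr2:160731300-160775760 on the plus strand of GRCm38, and 6.68% of its exon bases overlap genes on the other strand.

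Prkcq, the protein kinase C isoform that T cells recruit to the contact site, gave the largest rise. With DAPT it had 4933 and 4933 normalized reads, against 3238 and 3103 with DMSO (log2 fold change 0.64 ± 0.04 SE; adjusted p = 1.1e-11). With apicidin it had 3718 and 3719, against 3214 and 2967 with DMSO (0.27 ± 0.05; adjusted p = 1.6e-04), a 1.20-fold rise. With shHdac3 it had 2966 and 2842, against 2780 and 2896 with the scrambled hairpin (0.03 ± 0.05; adjusted p = 0.61), and the groups overlapped. Of all genes tested with DAPT, 7.23% changed by as much or more in either direction. Prkcq lies at chr2:11172108-11301222 on the plus strand of GRCm38.

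Themis was higher with DAPT and with apicidin by nearly the same amount. The DAPT libraries had 17208 and 17360 normalized reads, against 13598 and 14300 with DMSO (log2 fold change 0.31 ± 0.04 SE; adjusted p = 4.0e-07). The apicidin libraries had 9284 and 9365, against 7948 and 7451 with DMSO (0.28 ± 0.04; adjusted p = 8.8e-05). The shHdac3 libraries had 7236 and 7072, against 6570 and 7071 with the scrambled hairpin (0.07 ± 0.05; adjusted p = 0.23). Both drug groups stood clear of their controls, while with shHdac3 the lower treated library was level with the higher control. Themis lies at chr10:28668360-28883818 on the plus strand of GRCm38.

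The groups did not overlap for 7 of the 8 genes with DAPT, 7 with apicidin and 7 with shHdac3. Over all genes tested this held for 69.9% with DAPT, 69.0% with apicidin and 69.2% with shHdac3, so with 2 libraries a group non-overlap was the common case. By the authors' deposited table, all of the 8 genes but Zap70, or 7, had an adjusted p under 0.05 with DAPT, where 31.7% of all genes did. For apicidin the authors' deposited table called 3 of the 8, Lck, Prkcq and Themis, against 21.6% of all genes, and for shHdac3 it called Lck, Zap70 and Plcg1, against 23.9%. Hence 3 of the 6 apicidin calls, those of Zap70, Lcp2 and Plcg1 with changes of 0.13 to 0.15, depended on the test. Without apicidin replicate 1 the same 3 genes remained called as in the authors' deposited table.

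**Figure D3:**
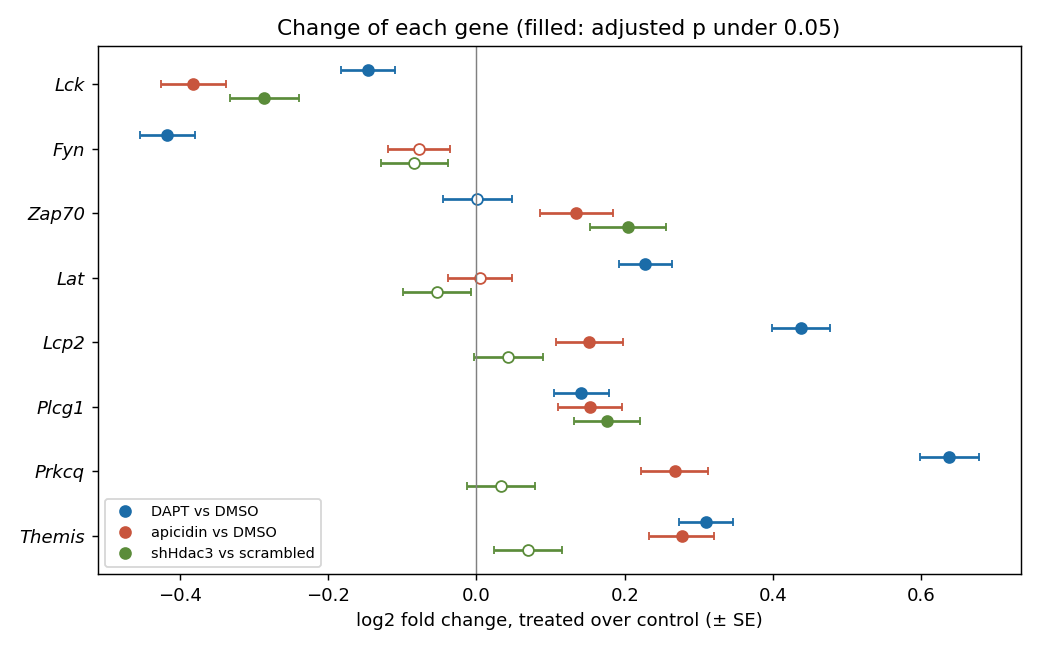
Log2 fold change of each of the 8 genes, treated over control, with bars of 1 SE from the limma fit; filled circles have an adjusted p under 0.05. Lck is left of 0 and Plcg1 right of 0 in all 3 comparisons. Fyn, Lat, Lcp2, Prkcq and, by a small margin, Themis have their largest change with DAPT, and Zap70 its largest with shHdac3.

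Whether the treatments differed from one another was tested directly, as the difference of 2 responses in a fit over all 12 libraries with common scaling, in which no controls are shared. DAPT and apicidin differed for 5 of the 8 genes, and 34.8% of all genes tested differed in this way. The DAPT response exceeded the apicidin response for Prkcq by 0.36 ± 0.06 on the log2 scale (adjusted p = 8.2e-05). It also did so for Lcp2 by 0.27 ± 0.06 (adjusted p = 0.0010) and for Lat by 0.21 ± 0.05 (adjusted p = 0.0033). For Lck, which was lower with both drugs, the difference was 0.22 ± 0.05 (adjusted p = 0.0021), a smaller fall with DAPT. For Fyn the difference was -0.35 ± 0.06 (adjusted p = 3.4e-05), a deeper fall with DAPT. No difference was called for Themis, at 0.02 ± 0.06, for Plcg1, at -0.02 ± 0.06, or for Zap70, at -0.15 ± 0.07 (adjusted p = 0.10). The Zap70 difference was called without replicate 2 of the DMSO group of the DAPT experiment (-0.19; adjusted p = 0.049). The drugs also differ in their target, their dose and their own controls.

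DAPT and shHdac3 differed for 7 of the 8 genes, where 43.8% of all genes tested did. Prkcq stood furthest apart, with a DAPT response 0.60 ± 0.06 above the shHdac3 response (adjusted p = 3.8e-08). Lcp2 followed at 0.39 ± 0.06 (adjusted p = 1.3e-05), Lat at 0.27 ± 0.05 (adjusted p = 1.9e-04) and Themis at 0.23 ± 0.06 (adjusted p = 0.0037). The difference was negative for Fyn, at -0.34 ± 0.06 (adjusted p = 2.9e-05), and for Zap70, at -0.21 ± 0.07 (adjusted p = 0.014). The Zap70 difference lost its call without DAPT replicate 2 (-0.19; adjusted p = 0.061), without replicate 1 of its DMSO group (-0.16; adjusted p = 0.084) and without scrambled replicate 1 (-0.19; adjusted p = 0.051). For Lck it was 0.13 ± 0.05 with an adjusted p of 0.0499, on the threshold; leaving out any single library other than those of the DMSO group of the apicidin experiment ended this call, with adjusted p-values of 0.055 to 0.15. Plcg1 differed by -0.04 ± 0.06 (adjusted p = 0.58).

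Between apicidin, the pharmacological inhibitor, and shHdac3, the hairpin, 2 of the 8 genes differed, against 33.4% of all genes tested. Prkcq responded more to apicidin by 0.24 ± 0.06 (adjusted p = 0.0046) and Themis by 0.21 ± 0.06 (adjusted p = 0.011). The Themis difference lost its call without replicate 2 of the DMSO group of the apicidin experiment (0.16; adjusted p = 0.062) and without scrambled replicate 2 (0.16; adjusted p = 0.075). For Lck the difference was -0.09 ± 0.05 (adjusted p = 0.20), for Lcp2 0.11 ± 0.06 (adjusted p = 0.15), for Zap70 -0.06 ± 0.07 (adjusted p = 0.49) and for Lat 0.06 ± 0.05 (adjusted p = 0.39). Fyn differed by 0.01 ± 0.06 and Plcg1 by -0.02 ± 0.06. Exposure also differed here, 24 h of drug against 96 h after puromycin.

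Genes of the receptor that feeds these kinases also changed, and Ptcra did so by more than any of the 8 genes in each experiment. Of 5 receptor and CD3 chain genes, the ζ chain gene Cd247 was higher and Cd3d, Cd3e, Cd3g and Ptcra were lower with each of the 3 treatments. By the authors' deposited table the apicidin values of Cd247 (adjusted p = 0.11) and Cd3e (adjusted p = 0.17) did not pass. The median log2 fold change of the 5 was -0.41 with DAPT, -0.23 with apicidin and -0.22 with shHdac3. These and the lists that follow stand beside the median of 0.00 over all genes tested and the shares called that are given above. Ptcra, the pre-T cell receptor α chain and a known Notch target, had 1531 and 1586 normalized reads with DAPT, against 7897 and 7696 with DMSO (log2 fold change -2.32 ± 0.04). Ptcra fell by 1.67 on the log2 scale with apicidin and by 1.23 with shHdac3. Cd247 was higher on the same scale by 0.59 with DAPT, 0.13 with apicidin and 0.38 with shHdac3, so the chain with the most phosphorylation motifs and its CD3 partners moved in opposite directions. Cd3g fell by 0.71 with DAPT and by 0.36 with apicidin, and Cd3e fell by 0.55 with shHdac3, all in log2 units.

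Coreceptors and costimulators split by treatment. With DAPT 6 of 7 were higher and none was lower, with a median log2 fold change of 0.49. Cd4 had 10781 and 10935 normalized reads, against 7813 and 7941 with DMSO, and Cd8b1 rose by 0.49, Cd28 by 0.50 and Cd5 by 0.75 in log2 units. With apicidin 2 were higher and 2 lower, with a median log2 fold change of 0.00, led by Cd6 (-1.74, at 15 and 11 normalized reads, against 52 and 40 with DMSO), Cd28 (0.81), Cd2 (0.55) and Cd4 (-0.35). With shHdac3 2 were higher and 2 lower, with a median of -0.12. There Cd4, whose protein carries Lck, had 2160 and 2060 normalized reads, against 4930 and 4927 with the scrambled hairpin (-1.22 ± 0.05). Cd4 was thus called higher with DAPT and lower with both HDAC treatments. Only Cd2 was called higher by limma in all 3 experiments. By the authors' deposited table, 6 were higher and none lower with DAPT, 2 and 2 with apicidin, and 1 and 2 with shHdac3.

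The other adaptors and kinases that work beside the 8 genes rose more often than they fell. Of 18, 14 were higher and 1 was lower with DAPT (median log2 fold change 0.33). With apicidin 11 were higher and 2 lower (median 0.26), and with shHdac3 9 were higher and 1 lower (median 0.13). By the authors' deposited table these counts were 12 higher and 1 lower with DAPT, 9 and 2 with apicidin, and 7 and 0 with shHdac3. Grap2, Grb2, Nck2, Pik3cd, Skap1 and Trat1 were among those called higher in all 3, although Skap1 with shHdac3 did not pass by the authors' deposited table (adjusted p = 0.18). Grap2, which links Lat to SLP-76, was higher in log2 units by 0.94 with DAPT, 0.45 with apicidin and 0.39 with shHdac3. Trat1, another transmembrane adaptor, had a log2 fold change of 0.84 with DAPT. Pik3cd, a catalytic subunit of phosphoinositide kinase, led with shHdac3 at a log2 fold change of 0.53.

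Negative regulators of the kinases also rose more often than they fell. Of 20 tested, 10 were higher and none lower with DAPT (median log2 fold change 0.14), 10 higher and 2 lower with apicidin (median 0.13), and 10 higher and 4 lower with shHdac3 (median 0.11). By the authors' deposited table, both apicidin and shHdac3 gave 8 higher and 1 lower. Inpp5d, Pag1, Ptprc and Sla were higher in all 3. Sla, which promotes the removal of receptor chains, had 14496 and 14081 normalized reads with DAPT, against 6762 and 6550 with DMSO (log2 fold change 1.10 ± 0.04). Ptprc encodes CD45, a phosphatase that can both activate and restrain Lck. Ptprc had 57074 and 56741 normalized reads with DAPT, against 38216 and 40586 with DMSO (0.53 ± 0.04). Csk, the kinase that puts the inhibitory phosphate on Lck and Fyn, was higher with apicidin (log2 fold change 0.15) and with shHdac3 (0.24) and did not pass the test with DAPT (-0.02). Its apicidin value did not pass by the authors' deposited table (adjusted p = 0.051).

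Downstream branches showed no common direction. Of 23 genes, 6 were higher and 4 lower with DAPT (median log2 fold change 0.04), 7 higher and 2 lower with apicidin (median 0.08), and 6 higher and 5 lower with shHdac3 (median 0.03). By the authors' deposited table these counts were 5 higher and 2 lower with DAPT, 4 and 1 with apicidin, and 2 and 1 with shHdac3. Itpr2, an inositol trisphosphate receptor, was higher in all 3, by 0.75 with DAPT, 0.52 with apicidin and 0.27 with shHdac3 on the log2 scale. Rasgrp1, the Ras activator recruited by diacylglycerol, had 2103 and 2126 normalized reads with DAPT, against 1275 and 1240 with DMSO (0.75 ± 0.05). Rasgrp1 had 2305 and 2282 with apicidin, against 1340 and 1374 with DMSO (0.76 ± 0.05), and with shHdac3 it changed by 0.03 and did not pass the test.

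**Figure D4:**
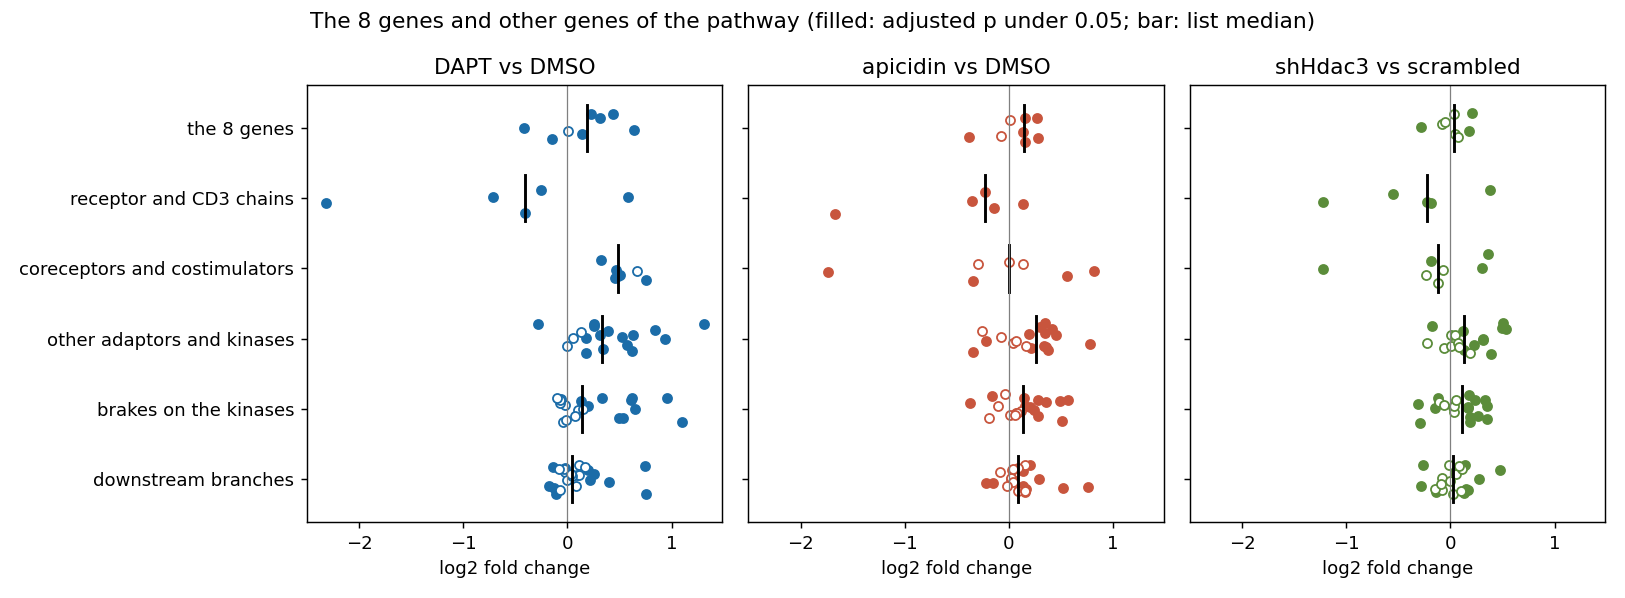
Log2 fold change (x axis) of the 8 genes and of 5 lists of other pathway genes in each comparison, treated over control; each circle is a gene, filled where its adjusted p is under 0.05, vertical position within a row is arbitrary and black bars are list medians. The receptor and CD3 chains lie mostly left of 0 in all 3 panels, and the other adaptors and kinases mostly right of it.

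Among paralogs of the 8 genes, Fgr was the only other Src-family kinase with substantial reads, and it was lower with all 3 treatments. It had 499 and 434 normalized reads with apicidin, against 746 and 738 with DMSO (log2 fold change -0.67 ± 0.07), and 420 and 455 in shHdac3 cells, against 686 and 696 with the scrambled hairpin (-0.66 ± 0.07). With DAPT its change was -0.17 ± 0.06 (adjusted p = 0.035), which did not pass by the authors' deposited table (adjusted p = 0.17). Plcg2, the phospholipase of B cells, had 66 and 72 normalized reads with DAPT, against 110 and 117 with DMSO (log2 fold change -0.71 ± 0.16; adjusted p = 0.0011). It was near the lower limit of the data in the apicidin experiment, with 7 and 8 normalized reads with apicidin, against 35 and 30 with DMSO (4.01-fold lower; adjusted p = 2.0e-04). Among protein kinase C genes, Prkca had 2178 and 2229 normalized reads in shHdac3 cells, against 1126 and 1083 with the scrambled hairpin (1.99-fold higher; adjusted p = 1.4e-21), while Prkcq did not pass the test there. Prkce was higher with DAPT (log2 fold change 0.34) and lower with shHdac3 (-0.56).

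For 7 of the 8 genes, the genes with the most similar course over the 12 libraries were found by Pearson's r of log2 levels centred within each experiment, over 10814 genes. These values describe 12 libraries that fall into 6 groups and share their scaling, so treated-against-control contrasts set most of them. Tarsl2 was nearest to Lck (r = 0.992), and Mllt4 to Fyn (0.986). Emp3 was nearest to Lat (0.989), Abcc5 to Lcp2 (0.988), Cdk9 to Plcg1 (0.976), Dzip1 to Prkcq (0.986) and Msh6 to Themis (0.982). Within the 8 genes Lcp2 and Prkcq were closest (0.973), and Dzip1 was among the 3 nearest genes of both.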

How the data were processed

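RNA was purified on columns with a DNase step, and the library kit keeps strand and removes ribosomal RNA, per the labels' protocols. The submitters' processing notes name FastQC, Bowtie2, TopHat, DESeq2 and the mm9 build. Read counter, annotation, strand setting and versions: not given in the sources used here. For each experiment the authors deposited a separate table. Per the file headers, these hold for every gene a normalized signal in 4 libraries. The deposited columns also give a log2 fold change, its SE, a p-value and an adjusted p-value. The deposited signal is whole reads divided by 1 factor per library: 100% of values were whole multiples within 1e-06, which gave back the reads and depths. All per-library columns were matched to samples.

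Groups and replicate numbers come from the sample titles. Treatments were compared with their own controls by limma 3.58.1 (R 4.3.3) on log2(value + 1), with the trend option and two-sided. A gene was tested where 2 or more of the 4 libraries reached a value of 10, and p-values were adjusted over all genes tested at 0.05. The pseudocount of 1 understates changes of low genes; all 8 genes passed the filter. Differences between responses were fitted on 12 libraries in 6 groups after size factors were recomputed on the recovered reads, so they deviate slightly from the difference of the printed fold changes. Alternatives were edgeR 4.0.16, DESeq2 1.42.0, the authors' adjusted p, other scalings, pseudocounts and filters, a replicate block and each library left out. The fits were tested on simulated reads.

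The 8 genes and all gene lists were chosen with earlier results of these data known. From each other list up to 4 genes per comparison with the largest change past the test may be named, with paralogs also given as levels; genes called in all 3 experiments, Csk, and further values of genes so named were chosen after their values were seen. Exon lengths and gene positions are from GENCODE M21 (GRCm38), which matched 93.0% of symbols; upstream sequences are from RefSeq (GRCm38.p6), which matched all 8 genes. Both differ from mm9, and no coordinate was converted. The upstream bases of Prkcq lie in an annotated exon and are not shown. The values of some genes that these rules allow are not reported here.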

Additional observations from a re-analysis of the deposited data

How the results depend on the processing

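Among the 336 alternative fold changes and 480 alternative differences of the 8 genes, none that passed the test in either fit turned direction. Values near 0 that passed in neither, such as Zap70 with DAPT, Lat with apicidin and Plcg1 in the differences, changed sign under some alternatives. Of all, 322 fold changes and 460 differences kept their side of the threshold, 13 and 19 lost it and 1 and 1 gained it. With apicidin, DESeq2 called 3 of the 8 genes and the authors' adjusted p also 3, against 6 by limma, and the count without 1 library ranged from 3 to 6. Over all genes, DESeq2 called 2458 with apicidin and 2961 with shHdac3, and by the authors' adjusted p 2465 and 2961 passed, against 4746 and 5228 by limma; the cause was not tested. Between apicidin and shHdac3, 1 to 2 of the 8 genes differed without 1 library. The DAPT against shHdac3 difference of Lck was also lost with a pseudocount of 5 (adjusted p = 0.051), without a filter (0.054) and with the replicate block (0.064), and that of Zap70 with upper-quartile factors (0.078). With those factors 43.5% of the shHdac3 calls over all genes were higher, against 53.8% with the authors' factors, and 56.5% against 46.6% with DAPT; the median of all genes moved by at most 0.04. Where a library was left out, the lone library of its group was assumed to vary like the other groups.

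Replicate numbers are shared between groups, but no label says that they mark a pairing, and deviations of same-numbered libraries correlated at 0.02 with DAPT, 0.04 with apicidin and 0.01 with shHdac3. With a replicate block, 7, 6 and 3 of the 8 genes were called with DAPT, apicidin and shHdac3, and 5, 6 and 2 in the 3 differences. The reads of the 8 genes carried a counting error of at most 2.70% per library.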
